A study of Mus musculus with 12 samples.

Results

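The comparison described here was that of airway macrophages (AMs) from Scnn1b-Tg mice with AMs from wild-type (WT) littermates after both had been stimulated with lipopolysaccharide (LPS), the outer membrane glycolipid of Gram-negative bacteria. It comprised 6 of the 12 RNA libraries of the series, chosen by the labelled genotype and treatment: Scnn1b-Tg pools 17, 18 and 19 and WT pools 16, 17 and 18, all after LPS. Scnn1b-Tg mice carry Scnn1b, the β subunit of the epithelial sodium channel, under the club cell secretory protein promoter, which is active in airway epithelium and not in macrophages, so that the macrophages come from lungs with dehydrated, adherent mucus. All mice were of the C57BL/6 strain and were 6 weeks old. Pools were taken to hold cells of 3 to 4 mice, the number of lavages the study pooled for treatment in culture. The LPS groups had received 100 ng/ml LPS from P. aeruginosa in culture for 12 h, and a second well of each pool, kept in complete medium, gave the other 6 libraries. The labels describe adherent lavage cells, whereas the methods describe sorting cells of digested lung for CD45, Siglec-F and CD11c. Which isolation applied to these libraries is not settled here. The batch label put WT pools 16 and 17 with Scnn1b-Tg pool 17 in batch 1 and the other 3 pools in batch 2.

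AMs patrol the airspace, take up particles, surfactant lipid and dead cells, and are the first leukocytes to meet inhaled bacteria. LPS is bound by CD14 and by the complex of TLR4 with MD-2. The adaptor MyD88 then leads to NF-κB and AP-1 and to early cytokines such as TNF, whereas the adaptor TRIF leads to IRF3, interferon-β and, through the interferon receptor, to interferon-stimulated genes. CCL5, CXCL10 and the guanylate-binding proteins belong to the later, interferon-assisted layer of this response. The question of the comparison was how much the genotype of the lung from which the AMs came altered their transcripts once the cells had met LPS.

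The 6 LPS libraries held between 52065302 and 60896505 estimated gene counts. Levels are given as CPM, the counts of a gene relative to the library total after trimmed-mean scaling, with the pools of each genotype in ascending order of their number. The labelled cell type was checked with 2 defining surface genes, chosen after values had been seen. Over the wider list of 27 AM identity genes, the median log2 change with LPS was -0.93 in WT and -1.22 in Scnn1b-Tg AMs. Genotype differences of that list are given further below. Itgax, which encodes CD11c, lay between 298 and 390 CPM in WT and between 268 and 390 CPM in Scnn1b-Tg pools. Marco, a scavenger receptor of AMs, lay between 1131 and 1348 CPM in WT and between 1088 and 2220 CPM in Scnn1b-Tg pools. Siglecf, the gene of the sorting marker Siglec-F, was at 11.3, 13.5 and 8.67 CPM in WT and 6.25, 5.08 and 8.08 CPM in Scnn1b-Tg pools, against means of 115 and 118 CPM in medium. The targeted gene itself checked nothing in these cells, since its promoter is epithelial: Scnn1b held 0, 23 and 40 counts in WT and 4, 10 and 29 counts in Scnn1b-Tg pools. In a principal component analysis of the 6 libraries, the first component (32.3% of the variance) separated the batches, with all batch 1 pools on one side and all batch 2 pools on the other.

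Markers of other cells were listed as well, and their part in the differences below was not tested. Epithelial markers, 13 of 13 in the table, summed to 86.2 to 130 CPM in WT and 39.3 to 73.3 CPM in Scnn1b-Tg pools, with the club cell gene Scgb1a1 at 52.4 to 68.9 CPM and 13.8 to 35.4 CPM of these sums. Of the 9 epithelial markers tested, 7 had an unadjusted edgeR p under 0.05 with a negative difference, against 2.59% of all genes tested. Neutrophil markers, 8 of 12 in the table, summed to 23.8 to 38.4 CPM in WT and 65.1 to 67.5 CPM in Scnn1b-Tg pools. Lcn2, which activated macrophages transcribe as well, was at 8.76 to 22.8 CPM and 43.3 to 50.5 CPM of these sums. S100a8 was at 6.0 to 9.25 CPM in WT and 7.62 to 14.2 CPM in Scnn1b-Tg pools, and Mmp8 at 2.78 to 5.29 CPM and 2.66 to 9.6 CPM, while S100a9 held at most 5 counts and Ngp 0 counts in any LPS library. All 6 neutrophil markers tested had a positive difference, with a median log2 fold change of 0.59. Dendritic cell markers summed to 10.2 to 11.1 CPM in WT and 13.7 to 20.8 CPM in Scnn1b-Tg pools, most of it Ccr7, while Flt3 held at most 15 counts. Of the 6 dendritic cell markers tested, 3 had a positive and 3 a negative difference. The marker sums of monocytes, interstitial macrophages, eosinophils, T and NK cells, B cells, and endothelial and stromal cells overlapped between the genotypes, and erythroid markers were at or under the floor in both. The sum of heat shock and immediate early genes was 1680 to 1910 CPM in WT and 1940 to 2100 CPM in Scnn1b-Tg pools. Most of it was the chaperone gene Hspa8, at 1310 to 1590 CPM in WT and 1530 to 1680 CPM in Scnn1b-Tg pools. Hspa8 alone overlapped, as did the immediate early genes Egr1, Ier2, Ier3, Fos and Jun, whereas Dnajb1 did not. The sum of the mitochondrial transcripts overlapped. The floor here is the worth of 3 reads, which was 8 counts in a library. RNA of a whole pool cannot tell fewer cells of a type from less RNA per cell.

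After LPS, 7 of 13729 genes tested were higher in Scnn1b-Tg AMs and 0 were lower (edgeR quasi-likelihood test with batch as a covariate, Benjamini-Hochberg adjusted p under 0.05), or 0.051% and 0% of the genes. The 7 genes were Ccl5, Vnn3, Fyb, Fscn1, Lrpap1, Pkdcc and Mlph. At an unadjusted p under 0.05 the same fit had 622 higher (4.53%) and 356 lower genes (2.59%), 978 together against 686 that a uniform distribution of p would give. DESeq2 with the same design called 105 higher (0.765%) and 41 lower (0.299%). In 785 genes (5.72%) every Scnn1b-Tg pool lay above every WT pool, and in 466 genes (3.39%) every one lay below. With 3 pools against 3, an exact permutation test of a single gene cannot give a p below 0.1. The p-values rest on the spread between libraries of a group, estimated over all 12 libraries. The fit treated the LPS and medium libraries of a pool as independent.

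The count of 7 depended on single libraries and on how the spread was modelled. It fell to 2 without Scnn1b-Tg LPS pool 17 and to 3 without WT LPS pool 18. Both libraries of a pool share mice, and a limma-voom fit with the pool as a random effect, which changed the test as well, called 11 genes and no longer Vnn3 and Mlph. With edgeR on the 6 LPS libraries alone 2 genes were called, and of the 7 only Ccl5 was among them. Of the 146 genes called by DESeq2, 7 were the edgeR calls, 127 did not overlap between the genotypes and 143 had the same direction in both batches. The last 2 counts come from the libraries that gave the calls, so they are no independent evidence. The share of all genes with 1 direction in both batches was not counted. Genes with an absolute edgeR log2 fold change over 1 numbered 633, of which edgeR called 6. DESeq2 called 60 genes with an absolute log2 fold change over 1 by its own estimate. Across all genes tested the median log2 fold change was 0.00 and the median absolute log2 fold change 0.12.

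**Figure D1:**
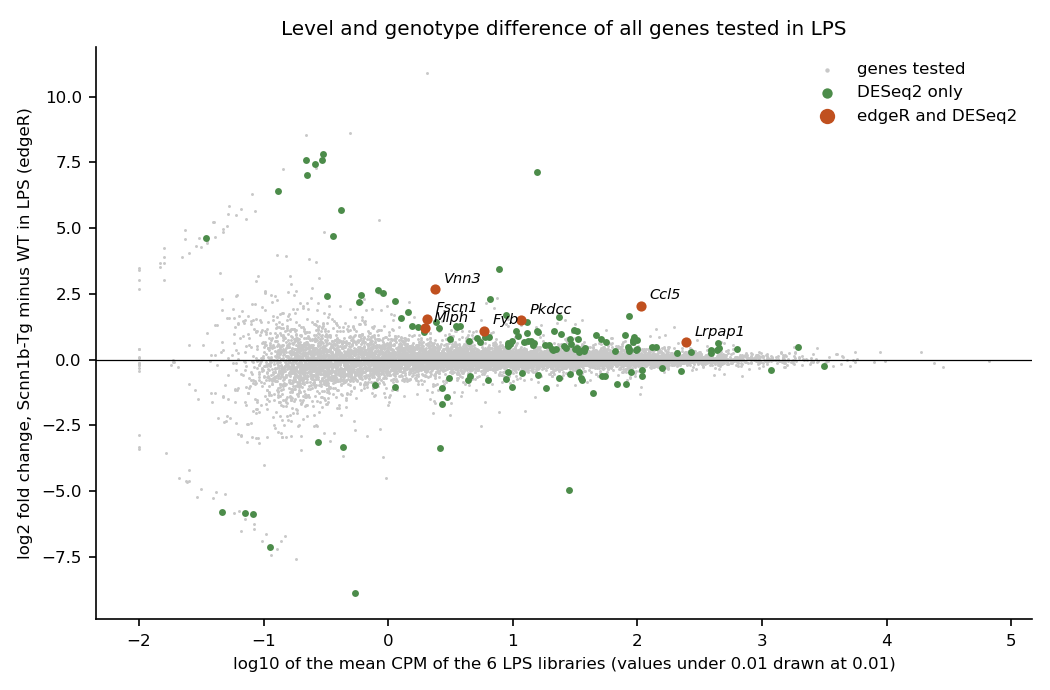
Log2 fold change between Scnn1b-Tg and WT AMs in LPS (vertical axis) against the log10 of the mean CPM of the 6 LPS libraries (horizontal axis), 1 point a gene. The 7 genes called by edgeR and DESeq2 are labelled and all lie above 0, genes called by DESeq2 alone lie on both sides, and most genes tested lie close to 0.

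The promoters of 3 of the called genes are shown because they differ widely in base composition although all 3 transcripts were higher in Scnn1b-Tg AMs. They are the 250 bases before the RefSeq start on assembly GRCm38.p6, all on the plus strand, at chr10:23851212-23851461 for Vnn3, chr5:142960105-142960354 for Fscn1 and chr17:83215033-83215282 for Pkdcc. Capitals mark matches to the C/EBP letters TTGNNNAA on either strand.
Vnn3: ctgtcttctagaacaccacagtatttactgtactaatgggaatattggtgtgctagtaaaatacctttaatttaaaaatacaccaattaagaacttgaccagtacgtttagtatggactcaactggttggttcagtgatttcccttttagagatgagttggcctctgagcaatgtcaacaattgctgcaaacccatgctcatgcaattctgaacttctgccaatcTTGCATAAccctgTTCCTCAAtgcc
Fscn1: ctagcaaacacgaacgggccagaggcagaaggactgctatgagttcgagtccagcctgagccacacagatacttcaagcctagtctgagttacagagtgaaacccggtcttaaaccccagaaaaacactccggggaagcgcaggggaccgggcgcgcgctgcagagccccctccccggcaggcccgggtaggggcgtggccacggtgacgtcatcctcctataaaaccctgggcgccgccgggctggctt
Pkdcc: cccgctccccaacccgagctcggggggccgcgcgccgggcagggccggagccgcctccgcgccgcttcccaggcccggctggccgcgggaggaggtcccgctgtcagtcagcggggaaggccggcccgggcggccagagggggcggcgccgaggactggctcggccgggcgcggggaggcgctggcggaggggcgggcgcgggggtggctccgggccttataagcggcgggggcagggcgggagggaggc

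The Vnn3 stretch had a GC content of 39.2% and 1 CpG, that of Fscn1 62.4% and 18 CpGs, and that of Pkdcc 83.2% and 36 CpGs, against medians of 59.6% and 16 CpGs over the promoters of 9731 of the 13729 genes tested. In Vnn3 the C/EBP matches lay 25 to 18 and 12 to 5 bases before the start, on opposite strands, and did not overlap each other. Promoters were given for 6 of the 7 called genes but not for Ccl5, whose promoter was therefore not searched. Of these 6, the C/EBP letters were found in 1 (Vnn3; 25.5% of the 9731 promoters hold them) and the interferon response letters GAAANNGAA in 1 (Fyb; 6.34%). In these 6 no match was found for the NF-κB consensus (8.59%), the AP-1 letters TGANTCA (4.17%) or the PU.1 letters GAGGAAG (10.8%). The RefSeq start of Fyb lies 56994 bases from the start of the GENCODE gene, so its stretch is that of another first exon.

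Ccl5, a chemokine that draws T cells, monocytes and eosinophils, was the gene with the lowest p. Ccl5 (ENSMUSG00000035042; mm10 chr11:83525778-83530518, minus strand) stood at 33.8, 38.4 and 43.1 CPM in WT and at 144, 204 and 181 CPM in Scnn1b-Tg pools. The highest WT pool lay far below the lowest Scnn1b-Tg pool. The means were 38.4 ± 4.64 and 176 ± 30.3 CPM (SD, n = 3 each), a 4.16-fold difference (log2 fold change 2.06 ± 0.13 SE, edgeR adjusted p = 9.14e-05). The difference of mean log2(CPM + 0.5) was 1.98 within batch 1 and 2.14 within batch 2. Without LPS the means of Ccl5 were 1.29 CPM (WT) and 2.32 CPM (Scnn1b-Tg; edgeR adjusted p = 0.114). LPS raised Ccl5 by 4.90 log2 units in WT and by 6.25 in Scnn1b-Tg AMs. The difference of these responses was 1.35 log2 units, and it did not pass the threshold over all genes (edgeR adjusted p = 0.271). Ccl5 was the 1 gene of the 7 that passed under all 23 alternative settings.

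Vnn3 encodes a vanin, a pantetheinase that releases cysteamine and pantothenate. Vnn3 (ENSMUSG00000020010; chr10:23851462-23869843, plus strand) was at 0.499, 0.781 and 0.585 CPM in WT and at 4.10, 3.10 and 5.22 CPM in Scnn1b-Tg pools. The groups were well separated, although the WT pools held few reads. The difference was 6.36-fold (log2 fold change 2.67 ± 0.39, edgeR adjusted p = 0.0223). In WT medium Vnn3 was at the floor, with 0, 5 and 0 counts, so that its level in WT after LPS was at least 3.99-fold higher and its level in Scnn1b-Tg medium at least 2.59-fold higher than there. The call held in 13 of the 23 alternatives, and it was lost without WT LPS pool 16 or 18, Scnn1b-Tg LPS pool 17 or 19, or WT medium pool 17 (edgeR adjusted p = 0.0531 to 0.33).

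Fyb, which encodes the adaptor ADAP that links surface receptors to integrins and actin, was higher in Scnn1b-Tg AMs. Its levels (ENSMUSG00000022148; chr15:6522853-6663313, plus strand) were 3.50, 3.17 and 4.25 CPM in WT and 7.24, 8.22 and 8.88 CPM in Scnn1b-Tg pools, 2.14-fold apart without overlap (log2 fold change 1.10 ± 0.13, edgeR adjusted p = 0.0183). In medium the means were close, 1.37 and 1.65 CPM (edgeR adjusted p = 0.649). LPS raised Fyb by 1.40 log2 units in WT and 2.29 in Scnn1b-Tg AMs, and the difference of the responses, 0.89, did not pass (edgeR adjusted p = 0.412). The exons of Fyb overlap the gene models Gm2245 and Gm7666, and counting did not use strand, so reads of these cannot be told apart. The call was lost when any LPS library but Scnn1b-Tg pool 18 was left out (edgeR adjusted p = 0.0531 to 0.167).

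Fscn1 encodes fascin, an actin-bundling protein of dendrites and filopodia that is typical of mature dendritic cells. Fscn1 (ENSMUSG00000029581; chr5:142960343-142973185, plus strand) was at 1.08, 1.23 and 1.09 CPM in WT and at 4.26, 2.51 and 2.20 CPM in Scnn1b-Tg pools. Every Scnn1b-Tg pool lay above every WT pool, with pool 17 the farthest. The log2 fold change was 1.56 ± 0.22 (edgeR adjusted p = 0.0458), and it was 1.32 without Scnn1b-Tg LPS pool 17 (edgeR adjusted p = 0.396). In medium Fscn1 was at 0.269, 0.509 and 0.221 CPM in WT and at 1.03, 0.704 and 0.654 CPM in Scnn1b-Tg pools, also without overlap (log2 fold change 1.46, edgeR adjusted p = 0.0892). The call held in 5 of the 23 alternatives, the fewest of the 7 genes, and was lost whichever of the 12 libraries was left out (edgeR adjusted p from 0.0565).

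Lrpap1 encodes RAP, a chaperone in the endoplasmic reticulum that escorts the scavenger receptor LRP1 and its relatives to the surface. Lrpap1 (ENSMUSG00000029103; chr5:35091501-35105766, minus strand) had the smallest fold change of the 7, on a small spread. Its levels were 178, 184 and 200.0 CPM in WT and 291, 295 and 339.7 CPM in Scnn1b-Tg pools, 1.58-fold apart (log2 fold change 0.66 ± 0.07, edgeR adjusted p = 0.0108). In medium the means were 159 and 213 CPM, again without overlap (log2 fold change 0.36, edgeR adjusted p = 0.0779). LPS raised Lrpap1 by 0.24 log2 units in WT (edgeR adjusted p = 0.0239) and by 0.54 in Scnn1b-Tg AMs (edgeR adjusted p = 1.21e-04). The genotype difference did not pass without Scnn1b-Tg LPS pool 17 (0.62, edgeR adjusted p = 0.167) or without WT LPS pool 18 (0.63, edgeR adjusted p = 0.104).

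Pkdcc and Mlph passed the threshold between the genotypes in medium as well. Pkdcc encodes a secreted tyrosine kinase that phosphorylates extracellular matrix proteins. Pkdcc (ENSMUSG00000024247; chr17:83215292-83225070, plus strand) was at 4.05, 3.52 and 7.76 CPM in WT and at 11, 24.0 and 19.7 CPM in Scnn1b-Tg pools after LPS. Batch 1 pools were lower than batch 2 pools within each genotype, and the genotypes did not overlap. The log2 fold change was 1.5 ± 0.13 in LPS (edgeR adjusted p = 0.00132) and 1.46 in medium (edgeR adjusted p = 0.00319). The change of Pkdcc with LPS was 0.01 in WT and 0.05 in Scnn1b-Tg AMs on the log2 scale, neither past the threshold. Without the batch term its LPS difference did not pass (1.84, edgeR adjusted p = 0.265).

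Mlph encodes melanophilin, which tethers Rab27a-bearing granules to myosin Va. Mlph (ENSMUSG00000026303; chr1:90915085-90951142, plus strand) was at 0.859, 0.954 and 1.44 CPM in WT and at 2.25, 3.48 and 2.96 CPM in Scnn1b-Tg pools after LPS. The log2 fold change was 1.2 ± 0.16 (edgeR adjusted p = 0.0303). In medium the means were 5.48 and 16.0 CPM (log2 fold change 1.33, edgeR adjusted p = 0.00319). LPS lowered Mlph by 2.32 log2 units in WT and by 2.45 in Scnn1b-Tg AMs, so that the Scnn1b-Tg pools after LPS lay under the WT mean in medium. The call held in 8 of the 23 alternatives, and of the 12 libraries only WT medium pool 16 and Scnn1b-Tg LPS pool 19 could be left out without losing it (otherwise edgeR adjusted p = 0.0585 to 0.236).

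In medium 23 genes were higher (0.168% of those tested) and 23 lower (0.168%) in Scnn1b-Tg AMs, and of the 7 genes called in LPS only Pkdcc and Mlph were among them (edgeR). In the other 5 genes as well every Scnn1b-Tg pool lay above every WT pool in medium, with Vnn3 at the floor in WT. The share of all genes tested without overlap in medium was not counted. The medium and LPS libraries come from the same pools, so the order in medium is not independent of that in LPS. LPS against medium moved far more genes: 2652 were higher (19.3%) and 2573 lower (18.7%) in Scnn1b-Tg AMs, and 2131 were higher (15.5%) and 2228 lower (16.2%) in WT AMs. Of the 7 genes, Ccl5, Vnn3, Fyb, Fscn1 and Lrpap1 rose with LPS past the edgeR threshold in both genotypes. For the difference of the LPS responses between the genotypes, edgeR called 0 genes higher (0%) and 0 lower (0%), with 817 genes at an unadjusted p under 0.05. The fit had no term for the pool, so the contrasts of LPS with medium and of the responses did not use the pairing of wells. The absence of calls therefore does not show that the responses were equal.

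**Figure D2:**
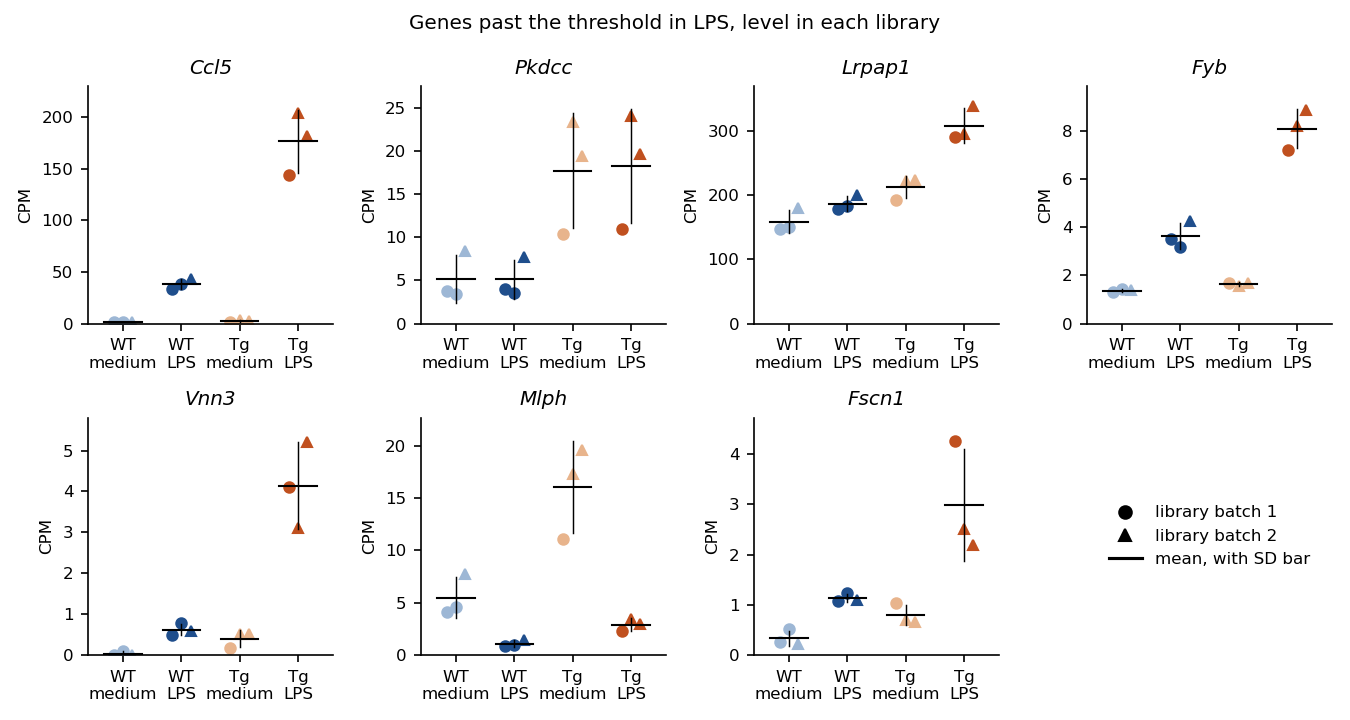
Level in CPM (vertical axis, from 0) of the 7 genes called in LPS, in WT and Scnn1b-Tg AMs in medium and in LPS, 1 symbol a library (circles batch 1, triangles batch 2), with the mean as a line and the SD as a bar. After LPS no Scnn1b-Tg library overlaps a WT library in any panel, and the same order without overlap is seen in medium in every panel.

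Beyond the calls, 134 genes with a positive and 40 with a negative difference had an unadjusted edgeR p under 0.01 and a mean of 5 CPM or more, with no overlap between the genotypes and the same direction in both batches. The 12 with the largest positive log2 fold changes outside the 7 are described next, and none passed the adjusted threshold of edgeR. Among them were secreted proteins of the acute phase whose transcripts LPS raised in both genotypes. Il6, an acute phase cytokine, was at 3.55, 2.25 and 2.91 CPM in WT and at 7.94, 6.09 and 10.8 CPM in Scnn1b-Tg pools (log2 fold change 1.52 ± 0.29, adjusted p = 0.0798 in edgeR and 0.267 in DESeq2). Saa3, an acute phase apolipoprotein, was at 1.68, 0.902 and 2.93 CPM in WT and at 7.41, 14.9 and 10.1 CPM in Scnn1b-Tg pools (2.30 ± 0.40). Lcn2, the siderophore-binding lipocalin, was at 22.8, 8.76 and 19.3 CPM in WT and at 44.3, 43.3 and 50.5 CPM in Scnn1b-Tg pools (1.36 ± 0.30). Reads of Saa3 may be shared with other serum amyloid genes.

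Cd38, a NAD-consuming ectoenzyme that is a marker of classically activated macrophages, missed the threshold narrowly (log2 fold change 1.98 ± 0.35, edgeR adjusted p = 0.0513). It was at 2.98, 3.26 and 2.17 CPM in WT and at 8.87, 11.8 and 13.2 CPM in Scnn1b-Tg pools, while its mean in medium was 0.0543 and 0.0311 CPM. DESeq2 gave Cd38 an adjusted p of 0.991 over the 12 libraries and of 5.6e-10 over the 6 LPS libraries alone, and with the pool as a random effect limma gave 0.0112. Cd40, the receptor of T cell help, was at 6.13, 4.06 and 5.31 CPM in WT and at 9.98, 11.7 and 17.7 CPM in Scnn1b-Tg pools (edgeR adjusted p = 0.291). Gbp2b, a guanylate-binding protein, was at 15.9, 17.7 and 22.4 CPM in WT and at 54.0, 44.7 and 60.6 CPM in Scnn1b-Tg pools (edgeR adjusted p = 0.0798). Gbp2b and Gbp2 are close relatives between which reads can be split. That none of these 3 overlapped between the genotypes was a condition of the rule that named them.

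The other 6 with a positive difference were Apbb2, Fstl1, Awat1, C2, Gm49322 and a gene known only by its identifier, ENSMUSG00000037015. DESeq2 called each of these 6 higher. Fstl1, a secreted glycoprotein related to follistatin, was at 27.4, 24.9 and 44.5 CPM in WT and at 65.8, 119.6 and 228 CPM in Scnn1b-Tg pools (log2 fold change 1.64 ± 0.31, adjusted p = 0.0937 in edgeR and 2.58e-05 in DESeq2). Awat1, an acyltransferase that makes wax esters, had log2 fold changes of 2.30 in LPS (DESeq2 adjusted p = 2.29e-06) and 2.44 in medium (edgeR adjusted p = 0.0341). Apbb2, an adaptor of the amyloid precursor protein, was at 2.18 to 6.17 CPM in WT and 11.8 to 17.5 CPM in Scnn1b-Tg pools (DESeq2 adjusted p = 1.12e-05). C2, a protease of the classical complement pathway, was at 4.27 to 9.25 CPM in WT and 14.2 to 30.7 CPM in Scnn1b-Tg pools (DESeq2 adjusted p = 0.032). ENSMUSG00000037015, which has no symbol in the annotation used, was at 0.399, 0.364 and 0.397 CPM in WT and at 35.5, 27.7 and 30.1 CPM in Scnn1b-Tg pools, against 34.6, 27.4 and 23.8 CPM in WT and 28.6, 0.38 and 0.299 CPM in Scnn1b-Tg pools in medium. C2 shares exons with Gm20547 and Zbtb12, and Gm49322 with Adat3 and Scamp4.

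Among genes with a negative difference, the 12 named by the same rule were Serpinb1a, Cd2, Flrt3, Tmem168, Fam181b, Car5b, Kat6b, Scgb1a1, Tnfsf4, Csf1, Siglecf and Krt19. None passed in edgeR, and DESeq2 called 9 of the 12, all but Car5b, Kat6b and Tnfsf4. Serpinb1a, an inhibitor of neutrophil serine proteases, was at 25.1, 23.5 and 24.2 CPM in WT and at 9.0, 17.3 and 12.1 CPM in Scnn1b-Tg pools (log2 fold change -1.07 ± 0.18, adjusted p = 0.0798 in edgeR and 2.58e-05 in DESeq2). Cd2, an adhesion molecule that AMs express unlike most macrophages, was at 36.0, 29.8 and 23.8 CPM in WT and at 22.3, 12.4 and 15.6 CPM in Scnn1b-Tg pools (DESeq2 adjusted p = 1.64e-04). Flrt3, an adhesion protein, was at 93.2, 108 and 73.9 CPM in WT and at 55.4, 48.9 and 32.9 CPM in Scnn1b-Tg pools (DESeq2 adjusted p = 0.00114). The lack of overlap in these 3 genes was likewise a condition of the rule. LPS raised Flrt3 in both genotypes while it lowered Cd2 in both.

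Csf1, the growth factor of macrophages, was at 12.1, 12.3 and 14.5 CPM in WT and at 7.10, 4.36 and 8.65 CPM in Scnn1b-Tg pools (DESeq2 adjusted p = 0.0222, edgeR adjusted p = 0.259). Tnfsf4, the ligand of OX40 on T cells, was at 11.9, 8.41 and 12.2 CPM in WT and at 5.28, 4.62 and 4.29 CPM in Scnn1b-Tg pools (edgeR adjusted p = 0.189, DESeq2 adjusted p = 0.958). Scgb1a1, the secretoglobin of club cells, was at 52.4, 66.8 and 68.9 CPM in WT and at 35.4, 26.6 and 13.8 CPM in Scnn1b-Tg pools (DESeq2 adjusted p = 0.0408). It moved with the other epithelial markers given above.

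**Figure D3:**
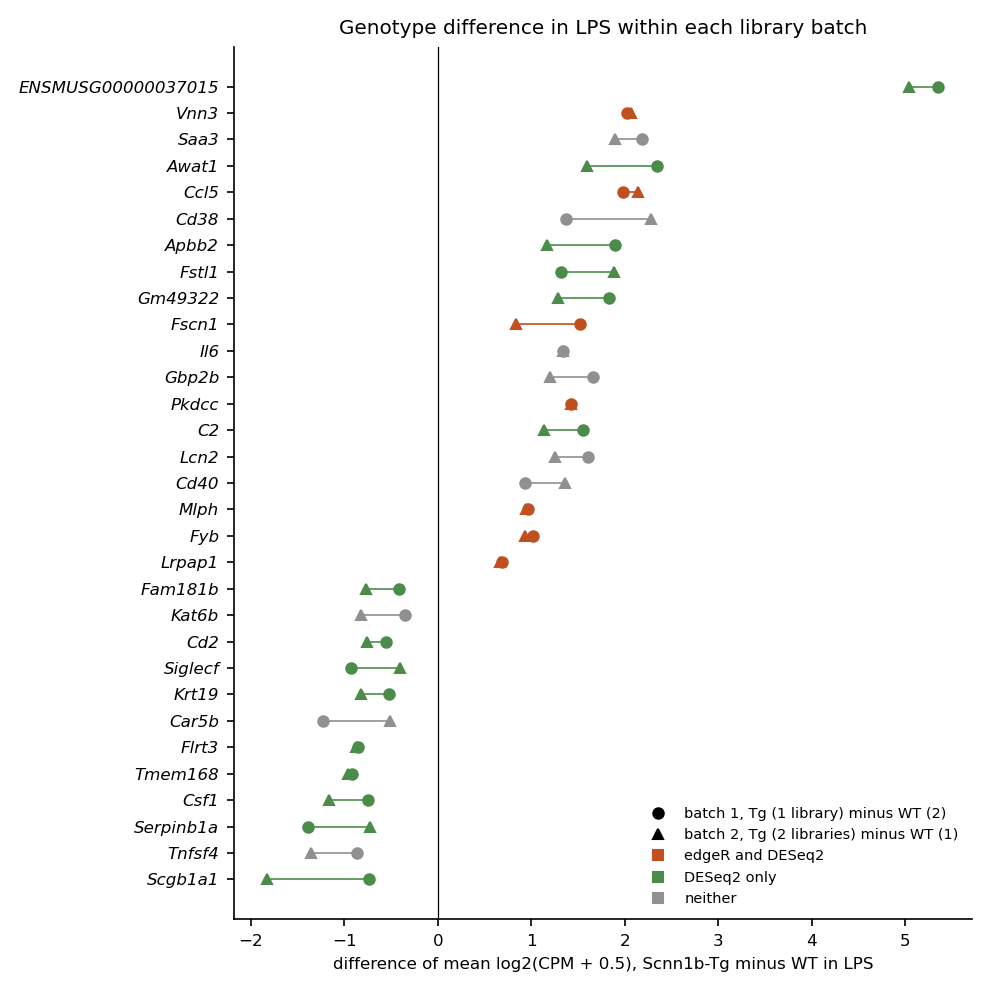
Difference of mean log2(CPM + 0.5) between Scnn1b-Tg and WT LPS libraries (horizontal axis) within batch 1 (circles) and batch 2 (triangles), for the 7 called genes and the 24 further genes named by rule (rows), coloured by which test called them. Circle and triangle lie on the same side of 0 in every row, as the rule required of the 24.

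The response was then followed along the pathway in lists of genes, each read against the shares of all genes tested given above. Of 22 genes of the LPS receptor and its adaptors, 21 were tested, and none was called by edgeR or DESeq2 and the median log2 fold change was 0.00, as over all genes. 2 had an unadjusted edgeR p under 0.05. Cd14, the LPS-binding coreceptor, was at 581, 561 and 584 CPM in WT and at 509, 674 and 611 CPM in Scnn1b-Tg pools. Tlr4 itself varied widely, at 34.8, 11.6 and 3.57 CPM in WT and 43.6, 32.4 and 32.6 CPM in Scnn1b-Tg pools. Tlr4 did not pass in edgeR (log2 fold change 1.52 ± 0.51, adjusted p = 0.476), but it passed without WT LPS pool 16 (2.43, edgeR adjusted p = 0.0263). Ikbke, the kinase IKKε, was at 38.3, 44.7 and 51.7 CPM in WT and 56.1, 70.8 and 67.9 CPM in Scnn1b-Tg pools without overlap (edgeR adjusted p = 0.304), and its exons overlap Gm28913 and Gm28914.

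None of the 5 NF-κB subunits had an unadjusted p under 0.05 (median log2 fold change 0.07). Rela, the main activating subunit, was at 271, 366 and 280.3 CPM in WT and at 323, 292 and 334 CPM in Scnn1b-Tg pools. Of 19 AP-1 and ATF factors, none was called by either tool, 1 with a positive and 3 with a negative difference had an unadjusted p under 0.05, and the median was -0.02. Batf, a partner of JUN and IRF4, was at 23.7 to 33.0 CPM in WT and 35.9 to 37.0 CPM in Scnn1b-Tg pools. Fosl1, a FOS relative that LPS raised in both genotypes, was at 50 to 59.5 CPM in WT and 38.1 to 40.2 CPM in Scnn1b-Tg pools (log2 fold change -0.57, edgeR adjusted p = 0.655). Among 22 of 23 brakes on signalling, which limit the response, none was called, 3 had an unadjusted p under 0.05 and the median was 0.05.

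Of 12 CC chemokines listed, 9 were tested, and edgeR called Ccl5 alone. The median of the list was 0.56, lying at 0.06 in batch 1 and 0.69 in batch 2, and it was 0.22 without Scnn1b-Tg LPS pool 19 and 0.24 without WT LPS pool 18. Ccl3, the chemokine MIP-1α, was at 469, 358 and 515 CPM in WT and at 498, 719 and 954 CPM in Scnn1b-Tg pools, overlapping (edgeR adjusted p = 0.464). Ccl4, its neighbour, was at 45.8, 35.4 and 36.3 CPM in WT and at 34.7, 68.4 and 68.2 CPM in Scnn1b-Tg pools. In both genes Scnn1b-Tg pool 17 lay within or next to the WT range.

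Of 10 CXC chemokines listed, 8 were tested, and neither tool called any (1 at an unadjusted edgeR p under 0.05; median 0.11). Cxcl1, a neutrophil attractant, was at 699, 491 and 867 CPM in WT and at 490, 1084 and 1122 CPM in Scnn1b-Tg pools. Cxcl2, of the same function, was at 1775, 1334 and 2189 CPM in WT and at 1249, 2168 and 2211 CPM in Scnn1b-Tg pools. Cxcl10, the interferon-induced ligand of CXCR3, was at 17.2, 26.1 and 24.9 CPM in WT and at 28.8, 35.3 and 43.5 CPM in Scnn1b-Tg pools (log2 fold change 0.45 ± 0.22, edgeR adjusted p = 0.738). Cxcl10 did not overlap between the genotypes, whereas Cxcl1 and Cxcl2 did. The exons of Cxcl10 overlap those of Art3.

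Of 21 cytokines listed, 16 were tested, and edgeR called none and DESeq2 called Csf1 lower. At an unadjusted p under 0.05 the list held 8 genes with a positive and 2 with a negative difference, against 4.53% and 2.59% of all genes, and its median was 0.40, or 0.10 in batch 1, 0.50 in batch 2, and 0.26 without Scnn1b-Tg LPS pool 18 and likewise without WT LPS pool 18. Tnf, the early cytokine of the MyD88 branch, was at 939.5, 976 and 1215 CPM in WT and at 822, 1371 and 1431 CPM in Scnn1b-Tg pools, with a log2 fold change of -0.04 ± 0.15. Il12b, which encodes the shared p40 chain of IL-12 and IL-23, was at 1.38, 1.67 and 1.49 CPM in WT and at 5.16, 2.81 and 3.62 CPM in Scnn1b-Tg pools (edgeR adjusted p = 0.15). Il1b was at 162, 145 and 136 CPM in WT and at 158, 272 and 195 CPM in Scnn1b-Tg pools. Tnf and Il1b overlapped between the genotypes, while Il12b and Il6 did not.

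Tnfsf15, the ligand of death receptor 3, was at 1.2, 1.61 and 1.91 CPM in WT and at 4.81, 5.02 and 8.56 CPM in Scnn1b-Tg pools (log2 fold change 1.77 ± 0.31, adjusted p = 0.0798 in edgeR and 0.0633 in DESeq2). Tnfsf9, the ligand of 4-1BB, was at 2.34 to 3.74 CPM in WT and 4.38 to 8.44 CPM in Scnn1b-Tg pools (edgeR adjusted p = 0.133). Neither overlapped. Il1a, whose product is released by damaged cells, was at 611 to 717 CPM in WT and 619 to 746 CPM in Scnn1b-Tg pools (log2 fold change 0.04 ± 0.11).

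**Figure D4:**
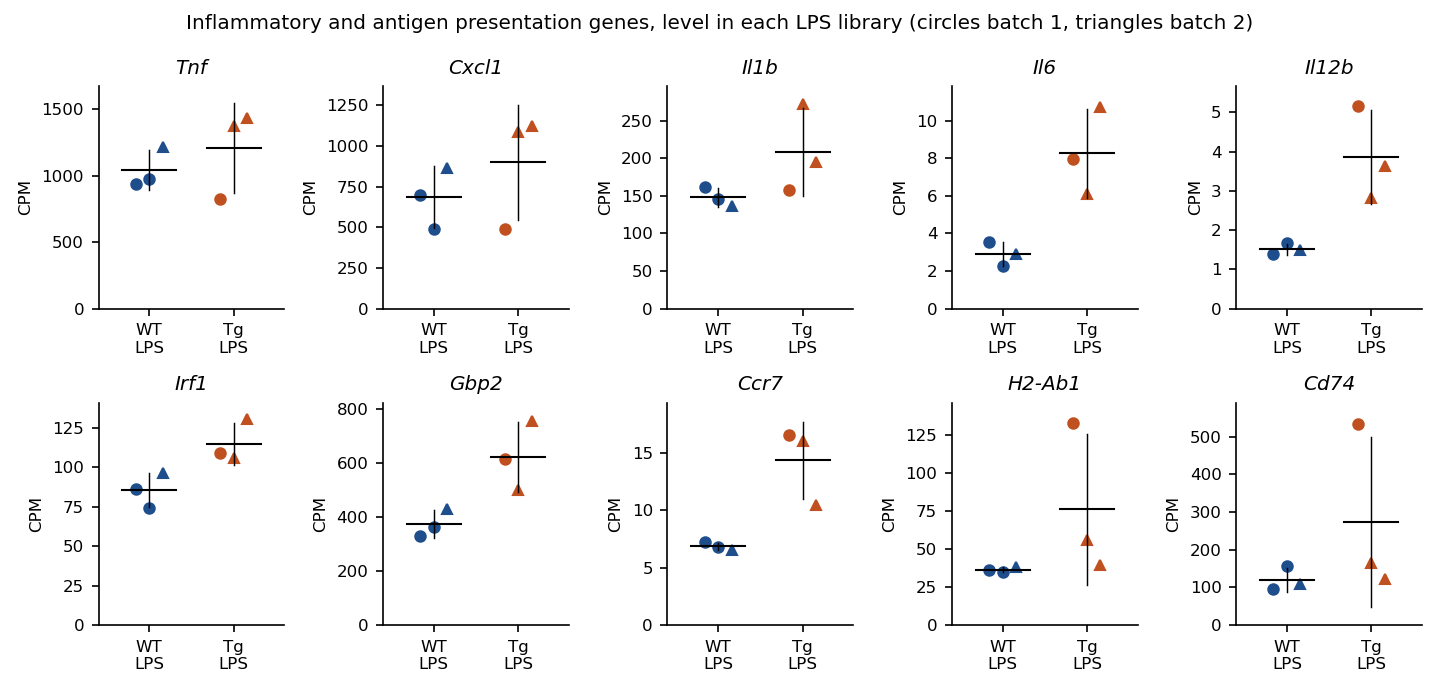
Level in CPM (vertical axis, from 0) of 10 inflammatory and antigen presentation genes in the LPS libraries of WT and Scnn1b-Tg AMs (circles batch 1, triangles batch 2), with the mean as a line and the SD as a bar. Tnf, Cxcl1, Il1b and Cd74 overlap between the genotypes, and in the H2-Ab1 and Cd74 panels 1 Scnn1b-Tg library of batch 1 lies far above all others.

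The interferon branch was followed through its factors, effectors and GTPases. Of 16 IRF and STAT factors, edgeR called none and DESeq2 called Irf1 higher, with 3 genes at an unadjusted edgeR p under 0.05 and a median of 0.13. Irf1, which drives late interferon genes and Il12 genes, was at 86.0, 74.4 and 96.0 CPM in WT and at 109, 106 and 130.2 CPM in Scnn1b-Tg pools (log2 fold change 0.39 ± 0.10, DESeq2 adjusted p = 0.0495, edgeR adjusted p = 0.261). Its exons overlap Gm17334. Irf7, which amplifies interferon-α genes, was at 113, 138 and 175 CPM in WT and at 188, 187 and 248 CPM in Scnn1b-Tg pools, without overlap (edgeR adjusted p = 0.866). Stat4 was at the floor in WT, and its level in Scnn1b-Tg pools was at least 1.89-fold higher, without passing in edgeR (adjusted p = 0.397).

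Of 36 antiviral interferon-stimulated genes, none was called by edgeR or DESeq2, and 3 had an unadjusted p under 0.05, all with a positive difference. The fold change was positive in 35 of the 36, with a median of 0.33 against 0.00 over all genes. The median was 0.59 in batch 1 and 0.12 in batch 2, and it was 0.04 without Scnn1b-Tg LPS pool 17 and 0.22 without WT LPS pool 16. Herc6, a ligase for ISG15, was at 81.6, 104 and 125 CPM in WT and at 159, 123 and 172 CPM in Scnn1b-Tg pools (edgeR adjusted p = 0.545). In medium the median of the list between the genotypes was 0.64.

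Of 14 GTPases induced by interferon, 12 were tested; none was called by either tool, 3 had an unadjusted p under 0.05 and the median was 0.44. Gbp2, a guanylate-binding protein that coats bacteria and their vacuoles, was at 328, 363 and 429 CPM in WT and at 613, 498 and 755 CPM in Scnn1b-Tg pools (log2 fold change 0.64 ± 0.19, adjusted p = 0.331 in edgeR and 0.0869 in DESeq2). Gbp3 was at 80.3, 109 and 117 CPM in WT and at 192, 138 and 255 CPM in Scnn1b-Tg pools. Both were without overlap, and Scnn1b-Tg pool 18 was the lowest of its group in each. The median of the list was 0.69 in batch 1 and 0.15 in batch 2, and 0.15 without Scnn1b-Tg LPS pool 17.

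Genes of MHC class II, which present antigen to helper T cells, stood apart in a single Scnn1b-Tg pool. Of 13 listed, 11 were tested; none was called by either tool, 6 had an unadjusted p under 0.05 with a positive difference, and the median was 0.49. Cd74, the invariant chain, was at 96.0, 157 and 108 CPM in WT and at 533, 164 and 122 CPM in Scnn1b-Tg pools. H2-Ab1, the β chain of I-A, was at 35.9, 34.7 and 37.9 CPM in WT and at 133, 55.8 and 39.5 CPM in Scnn1b-Tg pools. H2-Eb1, the β chain of I-E, was at 5.25, 5.27 and 5.02 CPM in WT and at 22.0, 9.95 and 5.18 CPM in Scnn1b-Tg pools. In all 3 genes Scnn1b-Tg pool 17 stood far above the rest and pool 19 lay at or near the WT level. Without pool 17 in LPS the log2 fold change of Cd74 went from 1.24 to 0.63 and that of H2-Ab1 from 1.13 to 0.69, and the median of the list was 0.26.

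Genes of costimulation and maturation gave 1 call in edgeR, Fscn1, out of 17 tested. DESeq2 called 4 higher, which were Fscn1, Ccr7, Marcksl1 and Il4i1. 7 had an unadjusted p under 0.05 with a positive and 1 with a negative difference, and the median was 0.28, or 0.12 without Scnn1b-Tg LPS pool 18. Ccr7, the receptor that guides mature cells to lymph nodes, was at 7.21, 6.85 and 6.57 CPM in WT and at 16.6, 16.0 and 10.5 CPM in Scnn1b-Tg pools (log2 fold change 1.09 ± 0.19, adjusted p = 0.0798 in edgeR and 3.33e-04 in DESeq2). Without LPS its genotype difference was 1.33 and passed (edgeR adjusted p = 0.042). Marcksl1, an actin-binding protein, was at 27.8, 27.1 and 34.0 CPM in WT and at 38.6, 65.3 and 88.3 CPM in Scnn1b-Tg pools (DESeq2 adjusted p = 0.00193). Il4i1, an amino acid oxidase, was at 0.699, 0.625 and 1.26 CPM in WT and at 2.17, 2.32 and 2.18 CPM in Scnn1b-Tg pools (DESeq2 adjusted p = 0.0226). None of the 3 overlapped, and the exons of Il4i1 overlap those of Atf5, Nup62 and Tbc1d17.

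Cd274, which encodes the inhibitory ligand PD-L1, was at 184, 218 and 204 CPM in WT and at 271, 226 and 269 CPM in Scnn1b-Tg pools (edgeR adjusted p = 0.324). The dendritic cell marker sum given above moved with Ccr7, of which it mostly consists. Flt3, Xcr1 and Clec9a held at most 15, 25 and 8 counts in any LPS library. Zbtb46 was at 1.8 to 2.89 CPM in WT and 2.49 to 3.08 CPM in Scnn1b-Tg pools. Batf3 was lower in Scnn1b-Tg pools without overlap, at 0.659 to 0.793 CPM in WT and 0.285 to 0.475 CPM in Scnn1b-Tg pools.

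Genes that define resident AMs had more negative than positive differences among those with a low p. Of 27 tested, edgeR called none, DESeq2 called 4 lower (Siglecf, Krt19, Cidec and Lpl), 6 had an unadjusted p under 0.05 with a negative difference and 0 with a positive one, and the median was -0.11. Lpl, lipoprotein lipase, was at 3280, 3459 and 3428 CPM in WT and at 2859, 2895 and 2965 CPM in Scnn1b-Tg pools (log2 fold change -0.25 ± 0.07, DESeq2 adjusted p = 0.0118, edgeR adjusted p = 0.355). Between the genotypes in medium Lpl passed in edgeR (-0.52, adjusted p = 0.0219). Cidec, a lipid droplet protein, was at 6.21, 5.55 and 5.04 CPM in WT and at 4.23, 3.06 and 3.07 CPM in Scnn1b-Tg pools (DESeq2 adjusted p = 0.0107). Krt79, a keratin of resident AMs, was at 8.19, 7.98 and 9.54 CPM in WT and at 1.53, 1.75 and 6.96 CPM in Scnn1b-Tg pools (edgeR adjusted p = 0.562). All 4 called genes and Krt79 lay below WT in each Scnn1b-Tg pool. LPS lowered Siglecf in both genotypes, by 3.38 log2 units in WT and 4.19 in Scnn1b-Tg AMs.

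Of 19 genes of alternative activation, 15 were tested; edgeR called none and DESeq2 called Chil4 and Igf1 higher, the 2 genes of the list with an unadjusted edgeR p under 0.05 (median 0.03). Igf1, a growth factor for epithelium and fibroblasts, was at 8.11, 8.88 and 12.7 CPM in WT and at 17, 19.8 and 28.8 CPM in Scnn1b-Tg pools, without overlap (log2 fold change 1.03 ± 0.18, adjusted p = 0.0798 in edgeR and 4.33e-05 in DESeq2). LPS lowered Igf1 in both genotypes. Chil4, a chitinase-like protein, was at 1.38, 1.77 and 0.982 CPM in WT and at 16.1, 1.67 and 25.0 CPM in Scnn1b-Tg pools, so that pool 18 lay within the WT range. Without that pool in LPS Chil4 passed in edgeR (log2 fold change 3.88, adjusted p = 5.64e-04). Between the genotypes in medium Chil4 passed as well (4.33, edgeR adjusted p = 0.045). Reads of Chil4 and its near copy Chil3 can be split between them, and Chil3 overlapped, at 6660 to 8670 CPM in WT and 8077 to 12430 CPM in Scnn1b-Tg pools.

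Of 26 phagocytic and scavenger receptors and their chaperones, 24 were tested; edgeR called Lrpap1 alone, and DESeq2 called Lrpap1 higher and Cd36 lower (median 0.07). Cd36, the receptor for oxidised lipoprotein and fatty acids, was at 1542, 1428 and 1168 CPM in WT and at 1132, 806 and 991 CPM in Scnn1b-Tg pools (log2 fold change -0.40 ± 0.10, DESeq2 adjusted p = 0.0337, edgeR adjusted p = 0.261). Fcgr4, an activating Fc receptor for IgG, was at 8.13, 6.23 and 7.52 CPM in WT and at 9.65, 9.05 and 11.8 CPM in Scnn1b-Tg pools. In neither gene did the genotypes overlap.

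Antimicrobial enzymes and proteins numbered 16, with none called by edgeR or DESeq2. Unadjusted p-values under 0.05 were found in 8, all with a positive difference, against 4.53% of all genes, and 6 did not overlap, against 5.72%. The median was 0.29. Rac2, a subunit that activates the NADPH oxidase, was at 174, 169.9 and 185 CPM in WT and at 226, 231 and 247 CPM in Scnn1b-Tg pools (log2 fold change 0.34 ± 0.09, adjusted p = 0.296 in edgeR and 0.0559 in DESeq2). Slc11a1, the metal pump NRAMP1 of the phagosome, was at 435, 456 and 482 CPM in WT and at 595, 500.5 and 624 CPM in Scnn1b-Tg pools (edgeR adjusted p = 0.319). Nos2, the inducible nitric oxide synthase, was barely detected, at 0.0599, 0.520 and 0.132 CPM in WT and 0.194, 0.533 and 0.38 CPM in Scnn1b-Tg pools. Lcn2 belongs to this list and to the neutrophil markers, and its values are given above.

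Metalloproteinases and their inhibitors gave no call in edgeR among 15 tested of 16, and DESeq2 called Mmp19 lower (4 at an unadjusted edgeR p under 0.05; median -0.05). Mmp19, a matrix protease, was at 53.1, 53.9 and 29.4 CPM in WT and at 33.0, 21.0 and 21.5 CPM in Scnn1b-Tg pools, which overlapped because batch 2 was lower in both genotypes. Mmp12, the macrophage elastase, was at 3337, 3775 and 2906 CPM in WT and at 3203, 2549 and 2680 CPM in Scnn1b-Tg pools (edgeR adjusted p = 0.941). Timp1, an inhibitor of these proteases, was at 0.200, 0.0867 and 0.604 CPM in WT and at 0.828, 1.25 and 0.759 CPM in Scnn1b-Tg pools.

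Genes of the cell skeleton numbered 25, with Fscn1 called by edgeR and DESeq2 and the tubulin gene Tubb2a called lower by DESeq2. Of these 25, 1 had an unadjusted p under 0.05 with a positive and 5 with a negative difference, and the median was -0.14. Tubb2a was at 262, 269 and 248 CPM in WT and at 199, 179.6 and 196 CPM in Scnn1b-Tg pools (log2 fold change -0.44 ± 0.09, DESeq2 adjusted p = 4.44e-04, edgeR adjusted p = 0.118), and in medium it was lower in Scnn1b-Tg AMs as well (-0.72, edgeR adjusted p = 0.00975). Tubb2b, Tubb6, Tuba1a and the actin gene Actg1 were the others with a negative difference and an unadjusted p under 0.05, all without overlap. Reads of tubulin and actin genes can be shared with near copies.

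Of 25 genes of cholesterol and fatty acid synthesis, edgeR called none and DESeq2 called Scd2 and Idi1 lower (3 at an unadjusted edgeR p under 0.05). The median of the list was -0.16, lying at -0.16 in batch 1 and 0.01 in batch 2, and at -0.33 to -0.08 over the 23 alternatives. Scd2, a desaturase, was at 59.4, 63.5 and 24.8 CPM in WT and at 40.6, 12.3 and 16.9 CPM in Scnn1b-Tg pools. Idi1, an isomerase of the mevalonate pathway, was at 52.0, 46.9 and 27.1 CPM in WT and at 31.7, 21.3 and 23.6 CPM in Scnn1b-Tg pools. Batch 2 was lower than batch 1 in both genes and genotypes, so the groups overlapped, and within batches the differences of mean log2(CPM + 0.5) were -0.59 and -0.76 for Scd2 and -0.63 and -0.27 for Idi1.

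The lists of glycolysis and hypoxia (25 tested), stress response (22) and antioxidant and heme genes (20) had no call in edgeR or DESeq2 and medians of 0.04, 0.06 and -0.09. At an unadjusted p under 0.05 they held 3, 0 and 4 genes. Gapdh, the glycolytic dehydrogenase often used as a reference, was at 64.1, 58.5 and 71.9 CPM in WT and at 56.0, 45.3 and 50.5 CPM in Scnn1b-Tg pools (log2 fold change -0.35 ± 0.10, edgeR adjusted p = 0.368). Ftl1, the light chain of ferritin, was at 33760, 29110 and 30530 CPM in WT and at 24310, 27660 and 25430 CPM in Scnn1b-Tg pools (edgeR adjusted p = 0.514). Both genes were without overlap between the genotypes and have many processed copies in the genome.

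A panel was formed of 11 genes that the study followed after LPS, of which 10 were tested here. The study measured some by quantitative PCR, some as secreted protein and Irf1 by RNA sequencing, so the measures differ. By quantitative PCR it reported Nos2, Il6, Il1b, Il12b and Mmp12 upregulated in Scnn1b-Tg AMs at 12 h, Mmp12 without passing 0.05. In the RNA libraries the panel gave the following. Irf1 alone was called, by DESeq2, 4 had an unadjusted edgeR p under 0.05 with a positive difference, and Il6, Il12b and Irf1 did not overlap between the genotypes, whereas Tnf, Cxcl1, Il1a, Mmp12, Nos2 and Ccl2 did. The median of the panel was 0.42, but -0.08 in batch 1 and 0.47 in batch 2, and it was 0.08 without WT LPS pool 18, 0.24 without Scnn1b-Tg LPS pool 18 and 0.17 without Scnn1b-Tg LPS pool 19. Of 18 genes that the study named in unstimulated AMs, chosen on related samples and hence no independent evidence, edgeR called none and DESeq2 called Anpep and Igf1 higher (7 at an unadjusted edgeR p under 0.05; median 0.31, or 0.48 without WT LPS pool 17). Anpep, a surface aminopeptidase, was at 280.2, 400.1 and 370.4 CPM in WT and at 581, 484 and 572 CPM in Scnn1b-Tg pools (DESeq2 adjusted p = 0.0405). Igf2bp3, an RNA-binding protein of fetal tissue, was at 4.57, 8.99 and 9.67 CPM in WT and at 16.7, 19.8 and 18.5 CPM in Scnn1b-Tg pools (DESeq2 adjusted p = 0.0781). Neither overlapped.

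**Figure D5:**
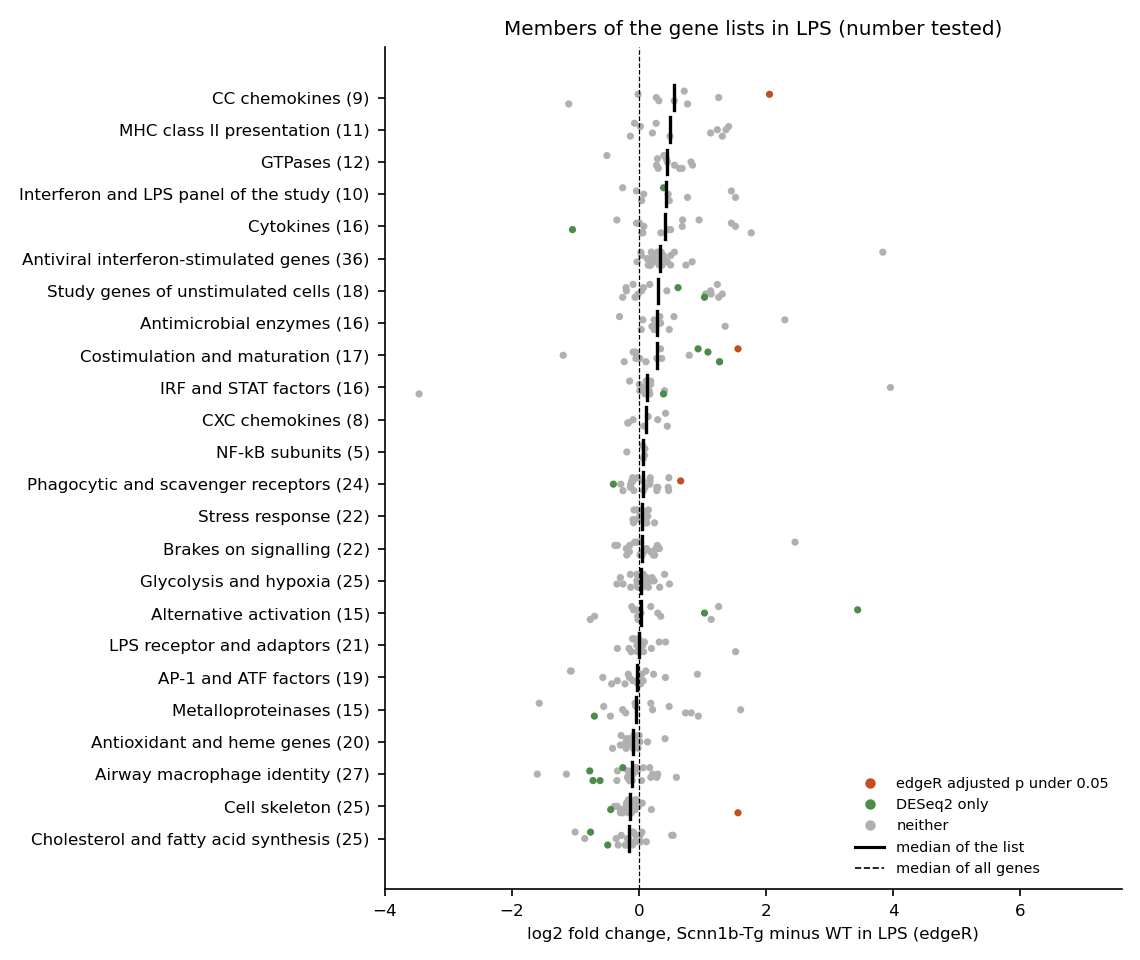
Log2 fold change between Scnn1b-Tg and WT AMs in LPS (horizontal axis) of each tested member of the 24 gene lists (rows, with the number tested), coloured by which test called it, with the median of each list as a bar and that of all genes as a dashed line. CC chemokines, MHC class II genes and GTPases have the medians farthest to the right, and genes of lipid synthesis and of the cell skeleton those farthest to the left.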

How the data were processed

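RNA of pooled AMs was amplified with SMART-Seq v4 and sequenced in pairs on an Illumina HiSeq. The authors ran nf-core RNAseq, aligned reads to mm10 with HISAT2 without strand, and deposited estimated counts per gene from StringTie on GENCODE annotation; the submitters' notes name HISAT2, StringTie and DESeq2. Low values step by about 2.5 counts a read, so spread from counting is larger than whole-number counts imply, and floors cover counting error only. Pools named by genotype and number in the labels are the replicates; no 2 LPS libraries of a genotype agreed within sampling noise. Symbols and positions came from GENCODE M21 (20158 of 20551 identifiers; the other 393 held 0.245% of counts), and promoters from RefSeq on GRCm38.p6.

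All 12 libraries, of 48191248 to 60896505 counts, entered 1 edgeR 4.0.16 fit (R 4.3.3): filterByExpr by group (minimum count 10, minimum total 15; 13729 genes), TMM, group plus batch, and the quasi-likelihood test with the newer dispersion step, two-sided, Benjamini-Hochberg threshold 0.05. The contrast was Scnn1b-Tg LPS minus WT LPS. Alternatives were DESeq2 1.42.0, the pool as a random effect (limma 3.58.1), other scalings, filters and sample sets, each library left out, and, added after seeing the data, the older dispersion step. LPS and medium libraries of a pool come from the same mice and deviated together (correlations of 0.137 to 0.335). Scripts were tested on simulated data.

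The comparison and the gene lists were chosen with earlier results of these data known, so lists are described by counts and medians without a test. Genes named are those called by edgeR; the 12 with the largest differences in each direction among genes with p under 0.01, at least 5 CPM on average, no overlap and 1 direction in both batches; and, for each list, called members with up to 4 others of lowest p. Itgax, Marco, Cd14, Ccl4 and the marker genes fall outside that rule and were chosen as defining genes after values had been seen. Differences within batches are of mean log2(CPM + 0.5), which shrinks those of low genes. Values of some listed genes are not reported here.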

Additional observations from a re-analysis of the deposited data

Results flagged for a closer look

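In 3 of the 137 named genes every WT pool changed one way with LPS and every Scnn1b-Tg pool the other. Changes are of log2(CPM + 0.5) within a pool. How many of all genes tested show this pattern was not counted, so the number cannot be set against a background share. For ENSMUSG00000037015 the changes were -5.29, -5.01 and -4.76 in WT and 0.308, 5.00 and 5.26 in Scnn1b-Tg pools, a difference of the mean changes of 8.541. For Gm49322 they were -0.055, -0.758 and -0.842 in WT and 0.610, 1.52 and 0.445 in Scnn1b-Tg pools, a difference of 1.409. For Gapdh they were 0.042, 0.006 and 0.388 in WT and -0.224, -0.504 and -0.290 in Scnn1b-Tg pools, a difference of -0.485. The interaction of the edgeR fit did not pass for any of the 3 (adjusted p = 0.291, 0.525 and 0.573).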

How the results depend on the processing

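The direction of all 7 called genes was the same under all 23 alternatives, and no alternative reversed a named gene past the threshold. The number of genes called (7, all higher) was 146 with DESeq2 (105 higher, 41 lower), 88 with DESeq2 on the 6 LPS libraries (70 higher, 18 lower), 2 with edgeR on those 6 libraries (2 higher, of the 7 only Ccl5), 4 without the batch term (4 higher) and 11 in limma-voom with the pool as a random effect, which changed the test too (11 higher). A minimum mean of 50 counts added 1 gene called lower. Leaving out 1 library at a time gave 2 to 9 calls, of which 2 to 7 were higher and 0 to 2 lower. Pool numbers 17 and 18 occur in both genotypes and mark only a number, since those pools hold different mice; with that replicate block in place of batch 12 genes were called, 9 higher and 3 lower, and the deviations of same-numbered LPS libraries had correlations of 0.261 and 0.228. RLE scaling, no filter, counts divided by 5 and the older dispersion step, the last added after seeing the data, gave 5 to 9 calls. Medians of lists near 0 changed sign under some alternatives: 13 of 23 for the LPS receptor and its adaptors, 3 for alternative activation and for metalloproteinases, and 2 for CXC chemokines, AP-1 and ATF factors, and glycolysis. The cause of these shifts was not tested. Differences of genes under about 1 CPM rest on few reads.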
